A study of Mus musculus with 2 samples.

Results

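A group of 10 genes of the machinery that couples growth to nutrient and energy supply were followed in CD8 T cells that had or had not met a glucocorticoid. The genes were chosen by name, from RefSeq symbols matched to the transcript names of the array: the kinase gene Mtor, its partners Rptor, Rictor and Deptor, the brake genes Tsc1 and Tsc2, the GTPase gene Rheb, the AMPK subunit gene Prkaa1, and the stress-induced genes Sesn3 and Ddit4. All 10 were among the 23462 genes with a named probe, and all 10 were among the 14136 with a value. Together they had 15 probes, of which 13 were well above background on both arrays. No probe of these genes was saturated or carried an outlier flag.

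Both cultures started from naive splenic CD8 T cells (low CD44, high CD62L) of C57BL/6 mice. They were stimulated for 2 days through the T cell receptor (plate-bound antibody, 3 µg/ml) and CD28 (1 µg/ml) with interleukin-2 (10 ng/ml), either with the synthetic glucocorticoid prednisolone (1 µM) or with vehicle, then moved to a fresh plate and kept 3 more days in interleukin-2. RNA was taken on day 5, and 1 array was hybridised per condition. The ages and number of the mice are not given in the sources used here, and the drug is named only for the stimulation period. With 1 array per group no test between cultures was possible, so no value below has a replicate check.

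The protein kinase mTOR works in 2 complexes. With raptor (Rptor) it forms mTORC1, which promotes protein, lipid and nucleotide synthesis when amino acids and energy are plentiful, and with rictor (Rictor) it forms mTORC2, which activates AKT and SGK kinases. Rheb switches mTORC1 on at the lysosome, and the tuberous sclerosis complex (Tsc1, Tsc2) switches Rheb off. The energy sensor AMPK, the sestrins and REDD1 (encoded by Ddit4) restrain mTORC1 under low energy, amino acid shortage, hypoxia or stress. In T cells this network is known for setting glycolysis, effector differentiation and memory formation after activation, largely through protein phosphorylation, which these arrays do not measure.

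Values are given first as the scanner's processed signal, an intensity already corrected for background, and then as a log2 difference, prednisolone minus vehicle, after each array was scaled to its 75th percentile (400.4 intensity units for vehicle and 386.9 for prednisolone). For a single probe the ± is the scanner software's own error. That error is about 10.0% of the signal for most probes, so a single bright probe carries ± 0.20. For a gene averaged over several probes, the ± combines their errors as if they were independent. It therefore shrinks as probes are added, and it leaves out the spread between them. The Rictor probes carried ± 0.21 to ± 0.28, for example, and the gene ± 0.14. A smaller ± of such a gene is thus no sign of a better measured difference. Every ± leaves out the spread between cultures. Signals of different probes depend on the probe and were not set against each other.

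Of the 10 genes, Deptor was the 1 at least 2-fold higher with prednisolone and Sesn3 the 1 at least 2-fold lower, and 8 lay between. The shares over all 14136 genes were 6.91% beyond 2-fold on the higher side and 7.93% on the lower side. Those genes include 1235 that were well above background on 1 array only and enter with an "at least" value. All 10 members were measured on both arrays. The median of the 10 differences was −0.07, beside 0.0031 over the 12901 genes measured on both arrays. Of the 10, 4 lay above 0 and 6 below. For the other 8 genes the arrays were within 2-fold of each other, and 1 of 10 in each direction is near the share over all genes. In RNA of whole cultures, fewer cells of a type and less RNA per cell cannot be told apart.

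**Figure D1:**
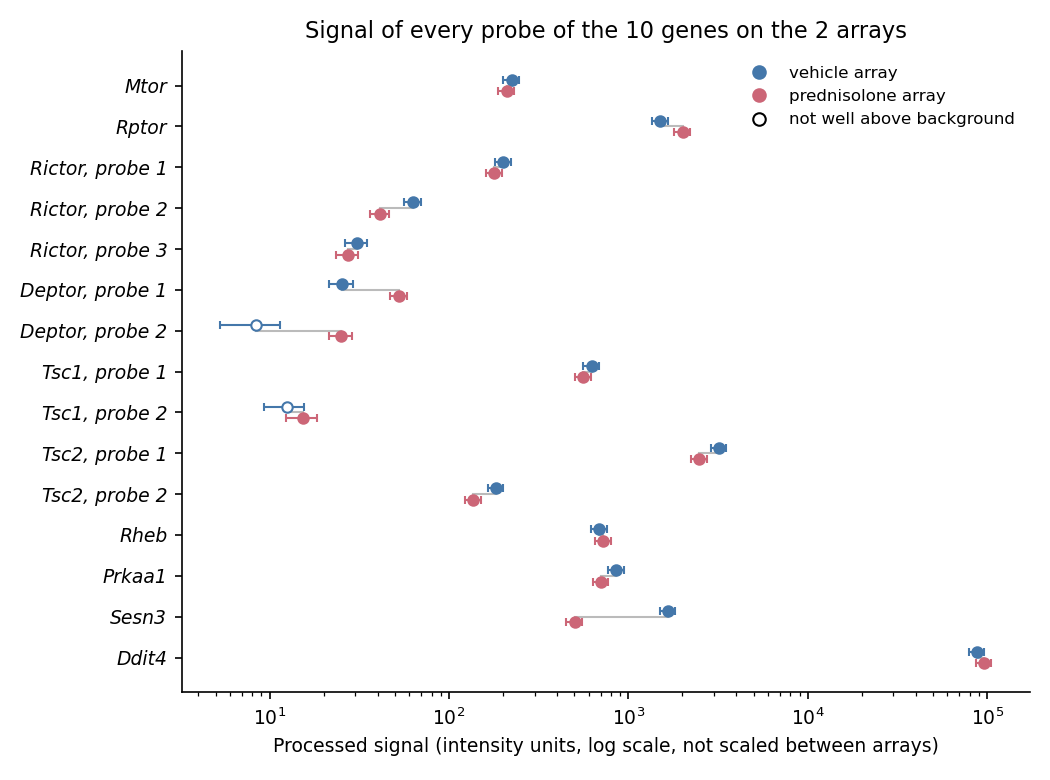
Processed signal (intensity units, log axis, not scaled between arrays) of each of the 15 probes of the 10 genes on the vehicle array (blue) and the prednisolone array (red), with bars for the software's error and open circles for spots not well above background. The bars of the arrays lie well apart for Sesn3 (1663 against 502), and they overlap for Mtor, Rheb and Ddit4. They also lie apart for the brighter probe of Deptor (25.3 against 52.7), at signals close to background. The dimmer Deptor probe was well above background with prednisolone only, so its direction adds no support. Signals of different probes are not comparable.

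Among the stress-induced inputs, Sesn3 stood lowest. It encodes sestrin 3, a sestrin whose gene is a known target of FOXO factors and whose protein restrains mTORC1. Its single probe read 1663 with vehicle and 502 with prednisolone. That is 3.20-fold lower (−1.68 ± 0.20), at percentile 2.07 of all genes measured on both arrays. It stayed at least 2-fold lower under each of the 12 other settings, from −1.73 to −1.44.

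The other sestrin genes were within 2-fold, Sesn1 on the lower and Sesn2 on the higher side. Sesn1, a target of p53 and FOXO factors, read 1856 and 1243 (−0.53 ± 0.20). Sesn2, a stress gene whose product also binds leucine, read 596 with vehicle and 884 with prednisolone, which is 1.54-fold higher (0.62 ± 0.20). Each sestrin gene kept its sign under the 12 other settings, and each rests on 1 probe.

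Ddit4 encodes REDD1, which activates the tuberous sclerosis complex and is known as a gene induced by glucocorticoids, hypoxia and other stress. Its probe was bright on both arrays, at 87631 with vehicle and 95807 with prednisolone. The difference of 0.18 ± 0.20 was no larger than the software's error, and it ranged from 0.12 to 0.42 over the other settings. For comparison, 2 other glucocorticoid-induced genes were at least 2-fold higher on the same arrays: Fkbp5 at 2.57 ± 0.14 and Tsc22d3 at 1.45 ± 0.14. The relative Ddit4l was above background on neither array.

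The promoter letters of Sesn3 and Ddit4 are shown because both genes are classed as stress-induced while only Sesn3 was 2-fold apart. Each is the 250 bases before the RefSeq start site in build GRCm38.p6, written 5′ to 3′ along the gene. Capitals mark the core of the hypoxia element, ACGTG.
Sesn3, chr9:14276051-14276300, plus strand: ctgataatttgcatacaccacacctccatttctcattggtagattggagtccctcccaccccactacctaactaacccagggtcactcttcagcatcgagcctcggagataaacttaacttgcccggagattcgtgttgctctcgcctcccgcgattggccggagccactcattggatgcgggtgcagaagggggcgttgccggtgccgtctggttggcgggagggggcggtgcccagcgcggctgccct
Ddit4, chr10:59951771-59952020, minus strand: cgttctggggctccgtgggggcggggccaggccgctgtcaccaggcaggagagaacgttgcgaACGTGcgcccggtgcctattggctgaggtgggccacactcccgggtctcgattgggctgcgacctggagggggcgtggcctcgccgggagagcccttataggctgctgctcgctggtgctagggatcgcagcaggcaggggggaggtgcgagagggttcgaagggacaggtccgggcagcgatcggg

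The RefSeq table held 9 of the 10 promoters, Deptor being the exception. Windows of 300 bases (250 before the start and 50 after) were searched on both strands for 5 motifs, the E-box having been added after the others were read. The full 14-base palindrome of the glucocorticoid receptor, the FOXO motif GTAAACA and the C/EBP-ATF element TGATGCAA were found in none of the 9, where 0.049%, 3.65% and 0.895% of all 32851 promoters hold them. The core ACGTG was found in 3 of the 9 (Ddit4, Rheb and Rptor), beside 19.6% of all promoters. In Ddit4 it began 187 bases before the start site and in Rptor 34 bases before it. In Rheb it lay 95 bases before the start inside CACGTG, the E-box, which reads the same on both strands. The E-box was held by 1 of the 9 and by 7.15% of all promoters. These are matches of letters in a short window and say nothing of factors bound there or further away.

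AMPK, the energy sensor, was represented by Prkaa1, the gene of its catalytic subunit α1. Its probe read 859 with vehicle and 704 with prednisolone, a difference of −0.24 ± 0.20. Under spike-in scaling it was −0.0001, so even the small offset depended on the scale. The other catalytic subunit gene, Prkaa2, was above background on neither array.

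The brake on Rheb differed slightly, by amounts that depended on the scale. Tsc2, which encodes tuberin, the subunit that inactivates Rheb, had 2 probes that read 3205 and 183 with vehicle and 2488 and 136 with prednisolone. They gave −0.32 and −0.37, a gene value of −0.34 ± 0.15, or −0.11 under spike-in scaling. Tsc1, which encodes the partner hamartin, read 623 and 561 on its brighter probe (−0.10 ± 0.20). Its dim probe was well above background with prednisolone only (12.5 against 15.5), which would set it at least 1.25-fold higher. Its difference of 0.36 ± 0.46 was smaller than the software's error. That probe has a value only through the array where it is high, so its direction adds no support. With no filter on dim probes Tsc1 was therefore 0.13, and 0.13 under spike-in scaling as well. Rheb, the target of this brake, read 688 and 724 (0.12 ± 0.20).

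Within the complexes, Mtor itself read 223 and 210, a difference of −0.04 ± 0.21, which became 0.03 with the authors' table and 0.20 under spike-in scaling. Rptor read 1509 with vehicle and 2005 with prednisolone. This was 1.38-fold higher (0.46 ± 0.20), between 0.41 and 0.70 over the other settings, and above 0 under all of them. Rictor had 3 probes, which read 200.2, 63.3 and 30.6 with vehicle and 178.6, 41.2 and 27.2 with prednisolone. They gave −0.12, −0.57 and −0.12, so the gene value of −0.27 ± 0.14 rests mainly on 1 probe. The brightest probe alone gave −0.12, normexp gave −0.08 and spike-in scaling −0.03.

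Deptor encodes an mTOR-binding inhibitor of both complexes. Its brighter probe read 25.3 with vehicle and 52.7 with prednisolone, where the spots measured 57.5 and 85.0 before correction over local backgrounds of 30 and 28. That is 2.15-fold higher (1.11 ± 0.28, percentile 95.4 of all measured genes). The dimmer probe read 8.38 and 25.2 and was well above background with prednisolone only, which sets it at least 2.03-fold higher. Since that probe has a value only through the array where it is high, its direction adds no support to the brighter one. Both probes had signals close to background. After normexp, another background correction, the brighter probe gave 0.44 and the dimmer 0.37. Normexp was run with an offset of 50 added to every spot, which draws differences of dim probes toward 0 by construction. These smaller values are therefore partly set by the offset and are no separate check of the difference. With a minimum signal of 100 Deptor had no value. Of the 3289 measured genes with a mean signal under 100 on at least 1 array, 9.06% lay beyond 2-fold on the higher side and 12.5% on the lower.

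**Figure D2:**
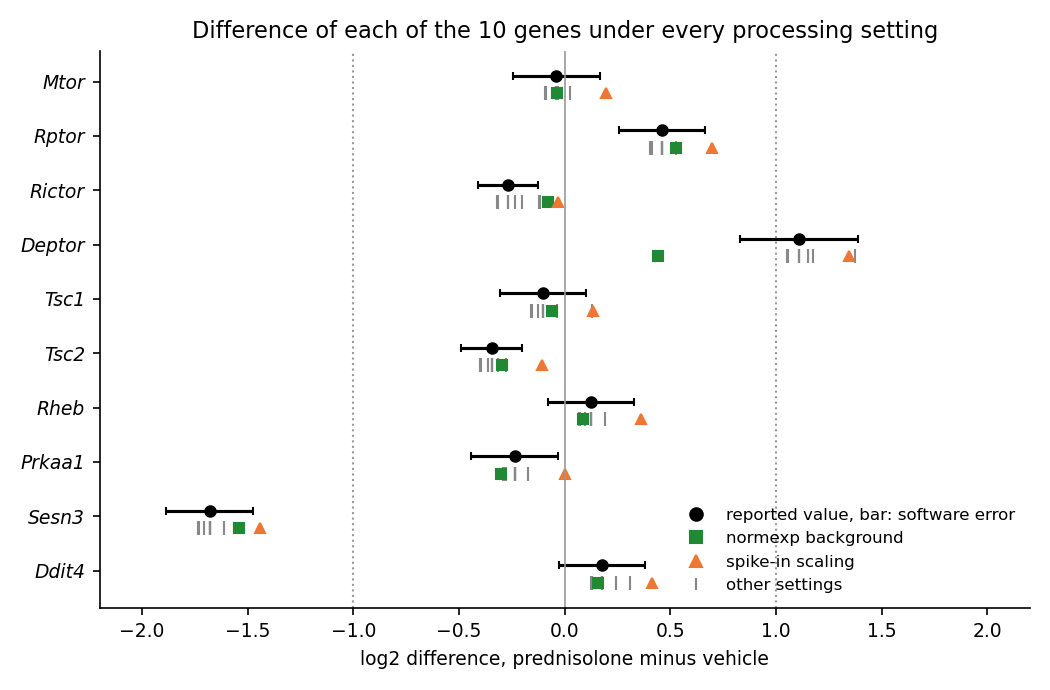
Log2 difference, prednisolone minus vehicle, of each of the 10 genes. Black points are the reported values, with bars for the software's error, combined over probes where a gene has several. Green squares are normexp, orange triangles spike-in scaling and grey ticks the other settings, with dotted lines at 2-fold. Sesn3 lies beyond 2-fold at every setting, and Deptor drops from 1.11 to 0.44 after normexp. The normexp offset of 50 shrinks differences of dim probes by construction.

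**Figure D3:**
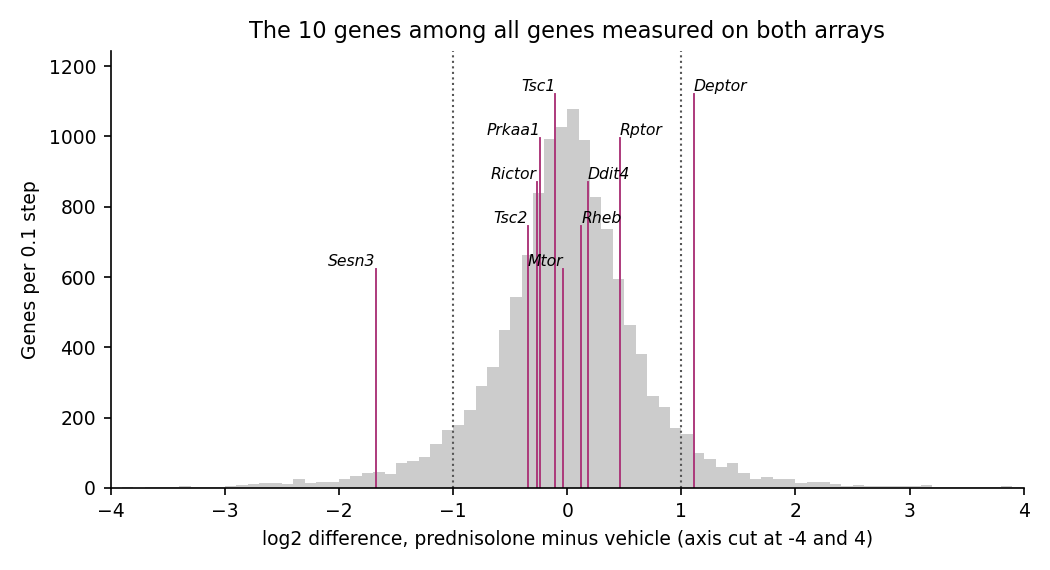
Number of genes per 0.1 step of the log2 difference among the 12901 genes measured on both arrays (grey, axis limited to −4 to 4), with a line for each of the 10 genes and dotted lines at 2-fold. Sesn3 (−1.68) and Deptor (1.11) lie in the tails, and the other 8 lie between −0.34 and 0.46.

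The wider pathway was read from 10 lists of other genes around mTOR and AMPK. Of their 100 genes 95 had a value, all measured on both arrays. Beyond 2-fold were 6 (6.32%) on the higher and 5 (5.26%) on the lower side, near the 6.91% and 7.93% of all genes, and 84 lay between. The median was 0.10. The counts in single lists below are of few genes each and are to be read beside the same shares of 6.91% and 7.93%. Scaling on the spike-in controls, which moves the median measured gene from 0.0031 to 0.24, gave 9 higher and 3 lower instead. Under that scaling the shares of all genes were 10.9% higher and 5.16% lower. Normexp gave 3 higher and 4 lower, beside 3.31% and 3.41% of all genes after normexp.

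The genes of other complex subunits and assembly factors had 1 of 8 at least 2-fold higher and none lower, with a median of 0.31. The higher one was Prr5, whose product (protor 1) binds rictor in mTORC2. Its 2 probes read 381 and 37.3 with vehicle and 1590 and 177 with prednisolone. The gene was 4.62-fold higher (2.21 ± 0.16), and 1.61 after normexp. Its relative Prr5l was −0.24 ± 0.14, within 2-fold.

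The kinases around TSC and the targets of mTORC2 had 1 of 8 genes at least 2-fold higher and none lower, with a median of 0.09. Sgk1, the serum- and glucocorticoid-regulated kinase, is activated by mTORC2 and is a known glucocorticoid-induced gene. Its probe read 492 with vehicle and 5746 with prednisolone, 12.1-fold higher (3.60 ± 0.20, percentile 99.8). The local background of that spot carried an outlier flag on at least 1 array, so Sgk1 has no value where such spots are left out.

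Amino acids reach mTORC1 through the Rag GTPases, and 1 of 16 genes of that list was higher and none lower (median 0.19). Rragd, the gene of RagD, had probes at 203 and 30.9 with vehicle and at 542 and 87.3 with prednisolone. It was 2.84-fold higher (1.51 ± 0.16), or 0.92 after normexp. None of the 11 genes of GATOR1, GATOR2 and KICSTOR, complexes that relay amino acid levels to the Rags, was 2-fold apart. Their median was −0.0026, and Wdr59, a GATOR2 gene, was farthest from 0 at −0.86 ± 0.20.

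Among AMPK subunits and upstream kinases, 12 of 13 genes had a value (median 0.19). Of them 2 were beyond 2-fold, both higher (16.7%, beside 6.91% of all genes). Camkk2, the gene of a calcium-activated kinase that phosphorylates AMPK, was 2.93-fold higher (1.55 ± 0.16), with its 3 probes between 1.25 and 1.70. Prkag1, the gene of the nucleotide-binding subunit γ1, read 4735 and 9277, 2.03-fold higher (1.02 ± 0.20). After normexp these were 0.91 and 0.94, both under 2-fold. The dimmer probes of Camkk2 read 23.7 and 17.6 with vehicle and 74.5 and 40.4 with prednisolone, and the normexp offset draws such differences toward 0. Its brightest probe read 1206 with vehicle and 3792 with prednisolone (1.70 ± 0.20). Camkk2 was also 1.70 where both signals had to reach 100. Prkag1 was also under 2-fold with no scaling (0.97), with the 75th percentile over detected probes (0.97) and after quantile normalization (0.96). Stk11, which encodes LKB1, the other main kinase upstream of AMPK, was 0.19 ± 0.20.

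The effectors downstream of mTORC1 had 3 of 18 at least 2-fold lower (16.7%, beside 7.93% of all genes) and none higher, with a median of −0.06. Of these 3, only Lpin1 stayed beyond 2-fold under spike-in scaling (−1.39). Lpin1, the gene of the lipid phosphatase lipin 1, was 3.09-fold lower (−1.63 ± 0.16), with its 3 probes between −1.92 and −1.13. Ulk2, which encodes an autophagy kinase held in check by mTORC1, was −1.11 ± 0.15, or −0.85 after normexp and −0.87 under spike-in scaling. Eif4ebp1, the gene of a translation repressor that mTORC1 inactivates, read 11462 and 5222 (−1.08 ± 0.20), or −0.85 under spike-in scaling. The S6 kinase gene Rps6kb1 was 0.24 ± 0.15 and Rps6 was −0.09 ± 0.14.

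In the 3 remaining lists, Bnip3, the gene of a mitochondrial protein that can also bind Rheb, read 40164 and 14252, 2.72-fold lower (−1.45 ± 0.20). It was the 1 of 4 TSC and Rheb relatives beyond 2-fold (median −0.10). Txnip, whose product AMPK marks for degradation and which restrains glucose uptake, was at 2.27 ± 0.14 the 1 of 8 AMPK targets that far apart (median −0.27). Ddit3, which encodes the stress factor CHOP, read 1488 and 225 (−2.68 ± 0.20), the 1 of 8 transcription factors known to control sestrin or REDD1 genes beyond 2-fold (median 0.13). In that list Foxo1, a FOXO factor, was 0.19 ± 0.14 and Atf4, an amino acid stress factor, was −0.66 ± 0.14. The sestrin and REDD1 relatives had 2 of 3 genes with a value, described above as Sesn1 and Sesn2.

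**Figure D4:**
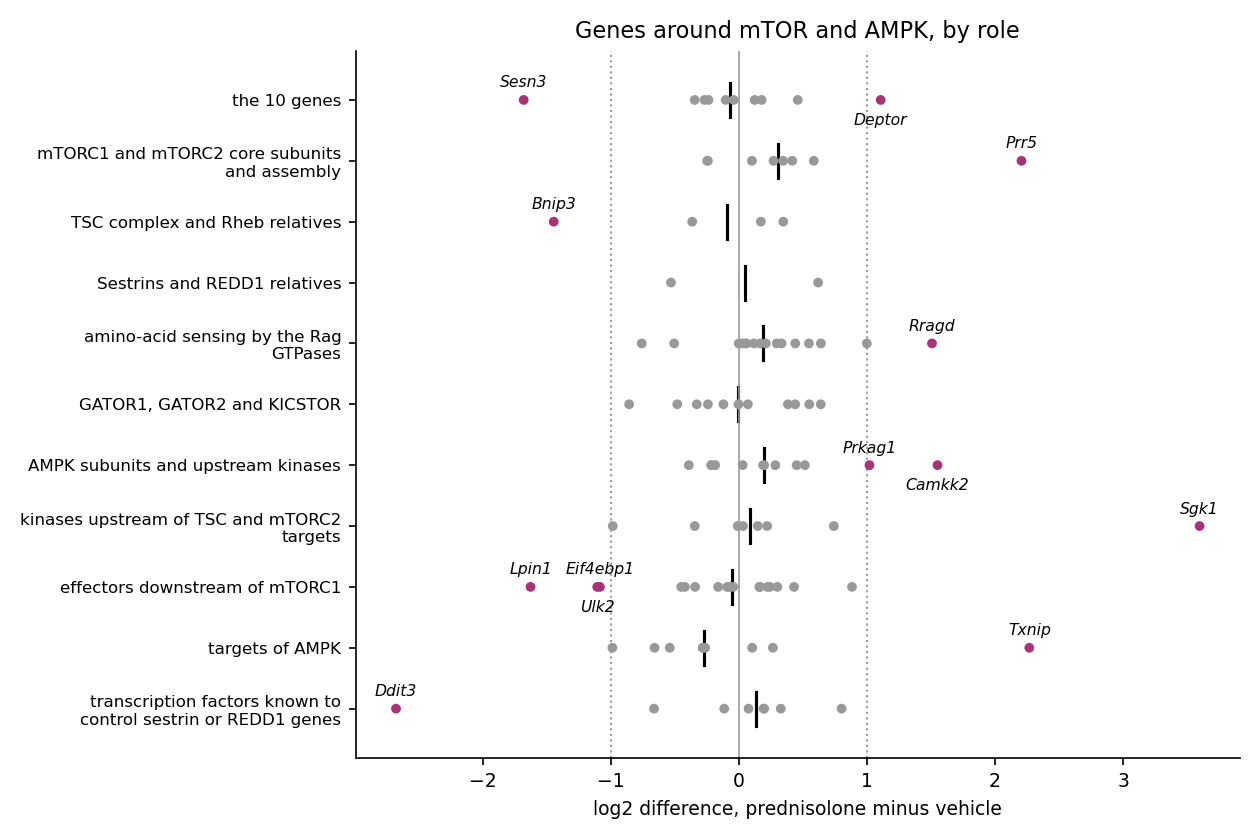
Log2 difference, prednisolone minus vehicle, of the 10 genes (top row) and of the genes with a value in 10 lists around them; each point is a gene, named and coloured where at least 2-fold apart, black bars are list medians and dotted lines mark 2-fold. Most points lie within 2-fold, with Sgk1 (3.60), Txnip (2.27) and Prr5 (2.21) farthest to the right and Ddit3 (−2.68) farthest to the left.

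The cell label was checked against marker genes. All 10 markers of CD8 T cells were well above background on both arrays, with Cd8a at −0.01 ± 0.14, Cd8b1 at −0.17 ± 0.20 and Cd3e at −0.53 ± 0.14. Of these, 9 lay below 0, with a median of −0.40 and a summed signal of 264330 with vehicle and 204277 with prednisolone. Under spike-in scaling Cd8a (0.23), Cd8b1 (0.06), Cd2 (0.33) and Zap70 (0.008) lay above 0, so that count depends on the scale. Cd3d, Cd3e, Cd3g, Cd247, Cd5 and Lck stayed below 0 there. The 3 CD4 T cell markers summed to 1120 and 740.0. The sums in this paragraph take unscaled signals averaged over every probe of a gene, also probes not above background. They are therefore not the sums of the gene values given here. Cd4 itself was 0.08 ± 0.20 on the 1 of its 2 probes above background on both arrays (640.5 and 655.8). Zbtb7b was −0.93 ± 0.20 and Foxp3 was −0.75 ± 0.22. Of the B cell, myeloid, NK and erythroid markers, Cd79a, Ms4a1, Lyz2, Adgre1, Ncr1 and Klf1 were above background on neither array. The other 4 were well above background on both. Of these, Pax5 (−0.09 ± 0.44) and Klrb1c (0.07 ± 0.32) were dim, Csf1r was −0.0003 ± 0.15 and Itgam was 0.02 ± 0.22. The 4 myeloid markers summed to 1850 and 1976. Whether these shifts have a part in the differences above was not tested. On each array 53.5% of the non-control spots were well above background. The 273 probes printed at least 8 times had a median SD of 0.03 (log2), and the 12 dim ones among them 0.22.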

How the data were processed

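RNA from 1 vehicle and 1 prednisolone culture (100 ng each, labelled with Cy3) was hybridised to 1-colour Agilent mouse arrays. The deposited scanner files hold spot intensities on a linear scale written by Agilent Feature Extraction 12.0.3.1, per the file headers, background-subtracted within the array and not scaled between arrays, with yes-or-no flags (values of other kinds). The headers name build mm9. The authors' deposited table of intensities is the processed signal times 0.792 (vehicle) or 0.858 (prednisolone). It is linear and not centred, with medians of 16.2 and 16.4, and the sources used here do not say how the factors were chosen.

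Processed signals were taken as log2 minus the array's 75th percentile over the 59305 non-control spots. Spots with an outlier flag of their own were left out (2 of 56605 probes lost every spot), and spots of a probe were averaged. Transcript names without version matched RefSeq genes (GRCm38.p6) for 33767 probes, while 22838 stayed unnamed. Probes well above background on both arrays were averaged per gene. For a gene or probe above background on 1 array only, the brighter value was set against the higher of the dim value and the lowest signal well above background on the other array, written "at least N-fold". The count of genes at least 2-fold apart was made without a test.

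The members, lists and named genes were chosen with earlier results of these data known. The text names all 10 members, up to 4 genes per list that were at least 2-fold apart or else the farthest from 0, and fixed checks. A few other list members are given for their role, and some genes of the lists are not reported here. The files hold the median and not the mean spot signal, so normexp (limma 3.58.1, offset 50) used the median. The offset is added to every spot, so differences after normexp are drawn toward 0, most of all for dim probes. Settings tried were normexp, 4 other scalings, the authors' table, 2 treatments of flags, 2 filters on dim probes and 2 rules for probes of a gene. The procedure was tested on simulated data. Python 3.11.15 and R 4.3.3 were used.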

Additional observations from a re-analysis of the deposited data

How the results depend on the processing

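Sesn3 was the 1 member at least 2-fold lower under all 12 other settings. The count of members at least 2-fold higher fell from 1 to 0 after normexp, where Deptor was 0.44, and to 0 where both signals had to reach 100, where Deptor has no value. Spike-in scaling moved the median of the members from −0.07 to 0.17, by the same 0.24 that it adds to every difference. The pathway genes at least 2-fold higher numbered 3 rather than 6 after normexp, and 5 to 9 under the other settings, while those lower numbered 5, 3 under spike-in scaling and 4 to 7 under the other settings. Over all genes the shares moved as well, between 3.31% and 10.9% on the higher side and between 3.41% and 8.59% on the lower. No value that was 2-fold apart changed sign under a setting run. Leaving out spots whose local background carried an outlier flag was added after seeing the data, and it removed 5879 probes but none of the members. With 1 array per group no sample could be left out. No paired analysis was possible because each group has 1 sample. Signal over background limits Deptor, the dim probes of Rictor and Tsc1, and the genes with no value.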

Other observations

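Some probes of the pathway gave values that the gene means hide, and they were picked after their values were seen. The translation initiation factor gene Eif4e had 2 probes annotated to different transcript records. One read 1861 with vehicle and 2406 with prednisolone (0.42 ± 0.20), and the other read 103 and 39.8 (−1.32 ± 0.23), so the gene mean of −0.45 describes neither. Telo2, which encodes a chaperone factor for mTOR assembly, was 0.59 ± 0.20 on the probe used, and 1.67 on a probe left out because its spot carried an outlier flag. Fnip2, which encodes a partner of folliculin at the lysosome, was 0.999 ± 0.21 on its brighter probe, just inside 2-fold, and at least 2.04-fold higher on its dimmer probe, which was well above background with prednisolone only. The dimmer probe has a value only through the array where it is high, so its direction adds no support. Pdcd4, which encodes a translation inhibitor degraded after S6 kinase phosphorylates it, was 1.85-fold higher (0.88 ± 0.14), with probes at 0.68 and 1.09. Akt1 was 0.74 ± 0.15 with probes at 0.72 and 0.76, beside −0.01 ± 0.12 for Akt2.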
